A study of Rattus norvegicus with 4 samples.

Results

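Tropomyosin genes and genes of the smooth muscle contractile apparatus were compared between 2 sublines of the Dunning R3327 rat prostatic tumour, MAT-LyLu, labelled highly metastatic, and G, labelled non-metastatic. The members are the 9 genes Tpm1, Tpm2, Tpm3, Tpm4, Myl9, Acta2, Tagln, Cnn3 and Cald1, and all 23 probe sets that the platform annotation gives to 1 of these symbols, of 8799 on the array. RNA of each line was read on 2 Affymetrix expression arrays, 4 in all, with G as the control. No treatment, passage or separate culture is named in the labels, so the error is the spread between arrays, which may be technical. Each subline is 1 cell line, and nothing separates metastatic behaviour from any other difference between these lines. In bulk RNA, fewer cells of a kind and less RNA per cell cannot be told apart. The genes were chosen with their differences between these lines known, so the values of the 23 probe sets are a description and carry no test.

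Tropomyosins are coiled-coil proteins that lie along the actin filament and control which myosins and severing proteins reach it. Each tropomyosin gene makes several isoforms through alternative first exons and splicing, long ones typical of muscle and stress fibres and short ones typical of non-muscle cells. In smooth muscle and in contractile fibroblasts these filaments work with alpha smooth muscle actin, the myosin regulatory light chain, calponins, transgelin and caldesmon, many of whose genes are driven by serum response factor at a DNA element called the CArG box.

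MAT-LyLu had higher signals than G for Tpm2, for 1 of 2 probe sets of Tpm4, for 2 bright probe sets of Tpm3 and, by less, for 3 of 5 probe sets of Tpm1. It had lower signals for both probe sets of Myl9, both of Tagln, 1 of 2 of Cnn3, 1 probe set of Tpm3 and, by far, 1 of 3 of Acta2. Cald1 was higher. The other 2 with both MAT-LyLu arrays below both G arrays, 1 of Acta2 and 1 of Tpm1, differed little. Of the 23 probe sets, 9 had both MAT-LyLu arrays above both G arrays and 9 had them below. A filter on low signal left 20 of the 23 for fitting, of which 9 were higher and 8 lower without overlap, where 28.6% and 39.2% of all 6555 probe sets fitted were. At a limma adjusted p under 0.05 over all probe sets, 8 of the 20 lay higher and 7 lay lower, against 34.1% of all probe sets in either direction (13.9% higher and 20.3% lower). The 9 higher without overlap include Tpm3 L24777_at, which was under the background level described below on every array. L24777_at is also among the 8, while Tpm1 M34134_s_at did not pass. The members were picked with this contrast in view, so nothing is read from these counts.

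**Figure D1:**
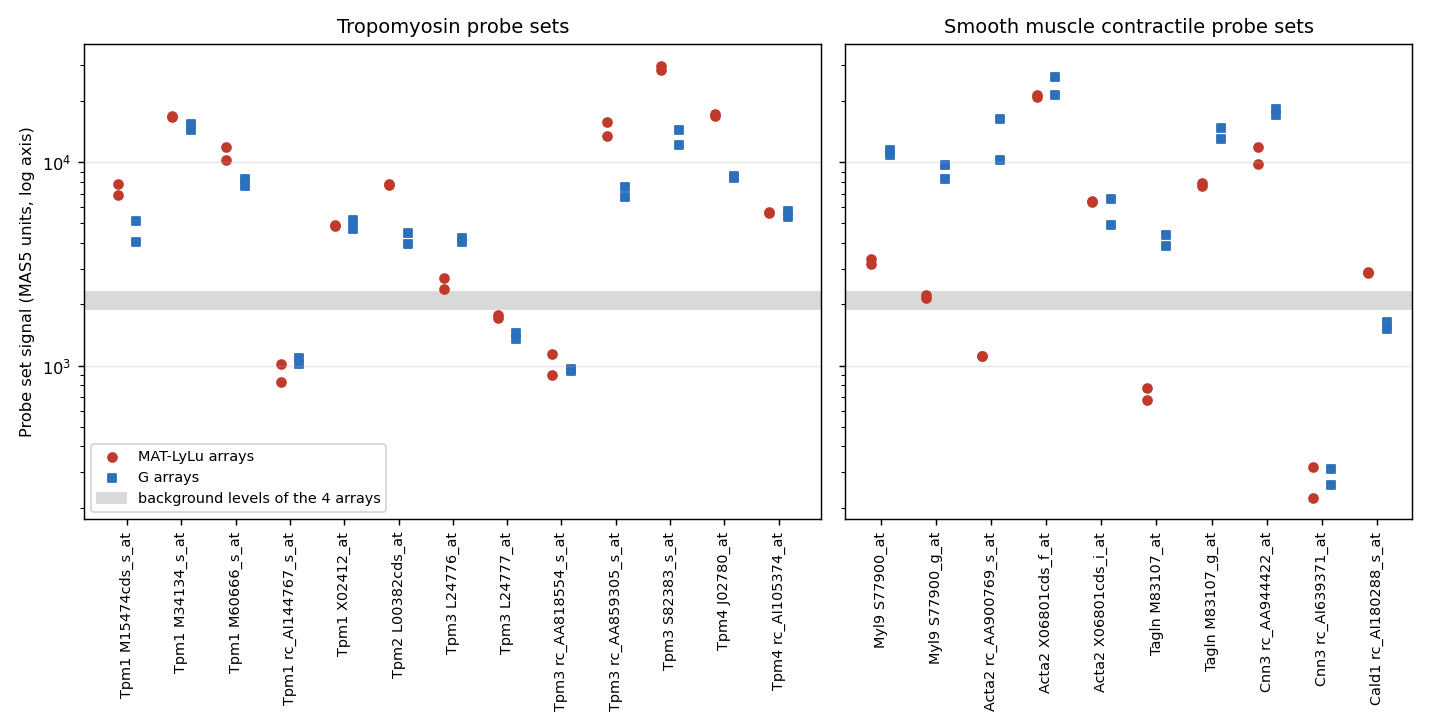
Signal of each of the 23 probe sets on each array (MAS5 units, log axis), with the 2 MAT-LyLu arrays as red circles and the 2 G arrays as blue squares. The grey band spans the background levels of the 4 arrays, 1891 to 2311. For Acta2 rc_AA900769_s_at and Tagln M83107_at the MAT-LyLu points lie under the band and the G points above it.

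Array medians ran from 2998 to 3015 in MAT-LyLu and from 3049 to 3156 in G. The SD of the log2 difference over the probe sets fitted was 0.17 between the MAT-LyLu arrays and 0.18 between the G arrays. The background level of an array was set at the 95th percentile of 23 probe sets for genes of bacteria, yeast and mouse, and was 1891 and 2311 in MAT-LyLu and 1973 and 2143 in G. Below, a log2 difference is MAT-LyLu minus G on the scale log2(signal + 16), with its standard error (SE) from limma, and a fold is that difference on the linear scale. Where both arrays of a line were under their background level, the fold is written "at least" and computed with the dim arrays raised to that level. Probe set names ending in _s_at or _f_at mark designs that can match related transcripts.

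Tpm2, the beta-tropomyosin gene, was read by 1 probe set, L00382cds_at. Its signal was 7764 and 7823 on the MAT-LyLu arrays, against 4473 and 3959 on the G arrays. The lines did not overlap, and the fold was 1.85 higher in MAT-LyLu (log2 difference 0.89, SE 0.09). Beta-tropomyosin is a long isoform of stress fibres and muscle, and in rodent and human fibroblasts its loss is a known mark of transformation.

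Tpm4 makes a short non-muscle tropomyosin. Probe set J02780_at had 16864 and 17369 in MAT-LyLu, against 8575 and 8365 in G, a 2.02-fold higher signal (log2 difference 1.01, SE 0.09). Probe set rc_AI105374_at had 5654 and 5722 in MAT-LyLu, against 5363 and 5770 in G. Here the MAT-LyLu arrays lay inside the range of the G arrays, with a log2 difference of 0.03 (SE 0.08). The probe sets of this gene therefore disagree, with 1 showing a difference and 1 none beyond the spread of the arrays.

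Tpm1, the alpha-tropomyosin gene, had 5 probe sets. M15474cds_s_at had 6940 and 7791 in MAT-LyLu, against 5123 and 4071 in G (1.61-fold higher, log2 difference 0.69, SE 0.12). M60666_s_at had 11949 and 10309 in MAT-LyLu, against 8296 and 7637 in G (1.39-fold higher, log2 difference 0.48, SE 0.10). In both, the lines were separated by more than the duplicates of either line differed. M34134_s_at had 16942 and 16685 in MAT-LyLu and 15365 and 14394 in G, a log2 difference of 0.18 (SE 0.09). X02412_at had 4836 and 4901 in MAT-LyLu, inside the 5178 and 4721 of G, a log2 difference of -0.02 (SE 0.09). The fifth, rc_AI144767_s_at, was under background on all 4 arrays, at 829 and 1021 in MAT-LyLu and 1021 and 1091 in G, and was not fitted. The Tpm1 probe sets thus ran from no difference to a 1.61-fold higher signal, and none above background was lower without overlap.

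Tpm3, the gamma-tropomyosin gene, whose short isoforms are found in most cells, had 5 probe sets that went in opposite directions. S82383_s_at had 29913 and 28508 in MAT-LyLu, against 14432 and 12156 in G (2.20-fold higher, log2 difference 1.14, SE 0.11). rc_AA859305_s_at had 15813 and 13475 in MAT-LyLu, against 7519 and 6747 in G (2.05-fold higher, log2 difference 1.03, SE 0.11). L24776_at had 2368 and 2708 in MAT-LyLu, against 4053 and 4263 in G, which is 1.64-fold lower (log2 difference -0.71, SE 0.10). In all 3 the lines did not overlap, so the difference in direction is larger than the spread of the arrays. The lower direction rests on L24776_at alone, whose MAT-LyLu signals lay near the background levels of 1891 and 2311. L24777_at, at 1720 and 1773 in MAT-LyLu and 1442 and 1354 in G, was under background on all 4 arrays. It had a log2 difference of 0.32 as deposited and 0.02 with the arrays raised to background, so no fold is given. rc_AA818554_s_at was under background too, at 898 and 1143 in MAT-LyLu and 938 and 963 in G, and was not fitted. The isoform read by each probe set was not worked out here.

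RefSeq (build GRCr8) lists separate starts for Tpm3, and the 250 bases before an upstream and a downstream start are shown because the gene's probe sets disagreed. Capitals mark matches to a CArG-like pattern, CC and GG around 6 bases of which at most 1 is G or C. The pattern reads the same on both strands, and 8.08% of 33469 rat windows of this length hold it. The upstream window is chr2:177814633-177814882 and the downstream one chr2:177821115-177821364, both on the plus strand.
Tpm3 upstream start: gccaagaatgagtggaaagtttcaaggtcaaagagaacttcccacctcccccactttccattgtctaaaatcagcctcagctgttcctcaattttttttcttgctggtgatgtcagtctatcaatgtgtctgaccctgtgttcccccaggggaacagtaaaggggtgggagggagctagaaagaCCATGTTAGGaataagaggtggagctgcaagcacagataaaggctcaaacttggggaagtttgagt
Tpm3 downstream start: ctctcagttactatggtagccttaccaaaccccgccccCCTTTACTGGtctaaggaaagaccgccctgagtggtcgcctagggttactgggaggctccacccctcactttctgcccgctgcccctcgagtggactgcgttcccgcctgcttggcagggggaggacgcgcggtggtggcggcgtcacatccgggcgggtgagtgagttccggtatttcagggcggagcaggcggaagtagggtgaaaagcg
The upstream window is 46.8% G and C with 0 CG dinucleotides, and the downstream window 63.2% with 18. Each holds 1 match, 66 to 57 bases before the upstream start and 212 to 203 bases before the downstream start. The window of another listed Tpm3 start overlaps the downstream window and holds none. No probe set was assigned to either start, and a match is a description of letters, not a site.

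**Figure D2:**
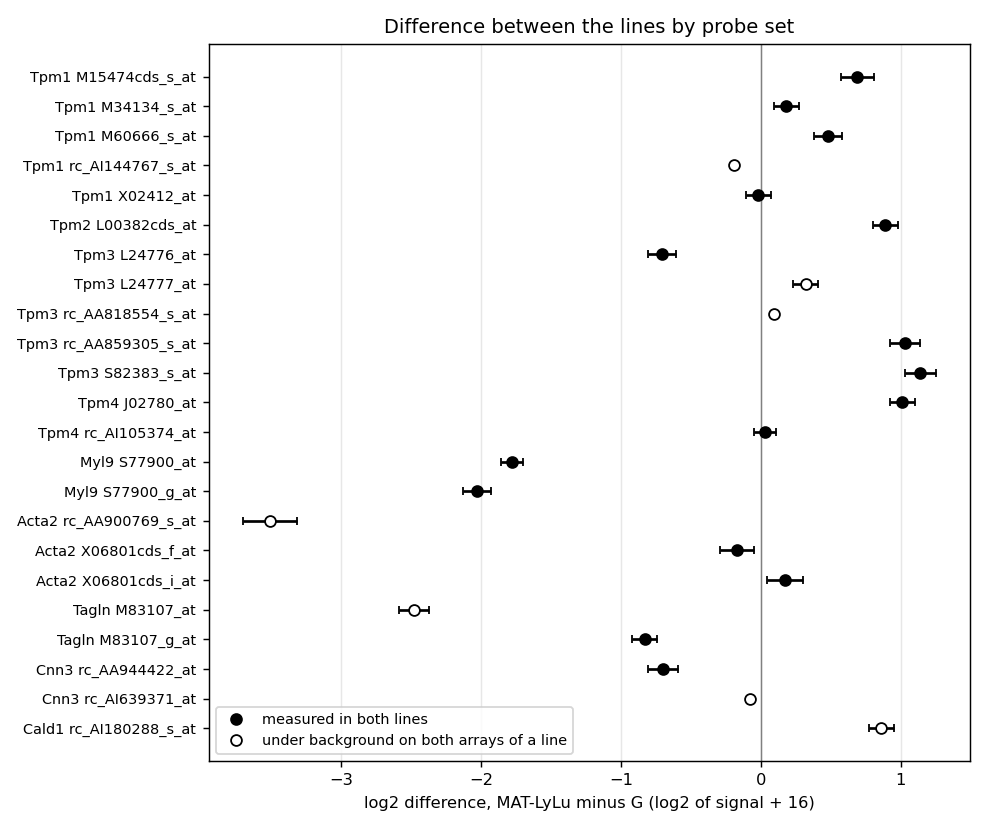
Log2 difference of each of the 23 probe sets, MAT-LyLu minus G, on the scale log2(signal + 16), with bars of 1 SE of the limma fit where the probe set was fitted. Open circles mark probe sets under background on both arrays of at least 1 line, whose values have no exact size. Both probe sets of Myl9 sit left of 0 at -1.78 and -2.03, while the probe sets of Tpm3 lie on both sides, from -0.71 to 1.14.

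Myl9, the regulatory light chain of smooth muscle and non-muscle myosin II whose phosphorylation switches on contraction, was lower on both of its probe sets. S77900_at had 3332 and 3153 in MAT-LyLu, against 11459 and 10901 in G. S77900_g_at, designed on the same sequence, had 2140 and 2218 in MAT-LyLu, against 9662 and 8231 in G. The folds were 3.44 and 4.07 lower (log2 differences -1.78, SE 0.08, and -2.03, SE 0.10), and for the second 1 of the 2 MAT-LyLu arrays was under background (3.99-fold with it raised). The log2 differences of this pair lay 0.24 apart, close to the median of 0.22 over all 1138 genes with 2 or more probe sets fitted.

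The closest relatives of Myl9, Myl12a and Myl12b, encode the regulatory light chains of non-muscle myosin II and are not members. Their list was chosen with earlier results of these data known, and Myl12a was named after its values were seen. Their adjusted p-values are therefore a description. Both genes rose. Myl12b had 27396 and 27000 in MAT-LyLu, against 14229 and 11356 in G (2.14-fold, log2 difference 1.10, SE 0.12, limma adjusted p = 8.1e-05). Myl12a had 36261 and 32990 in MAT-LyLu, against 21277 and 18108 in G (1.76-fold, log2 difference 0.82, SE 0.11, limma adjusted p = 4.2e-04). Both were read by _s_at designs on similar sequences, so how far each signal holds the other's RNA was not tested. The essential light chain gene Myl6, with 6003 and 6202 in MAT-LyLu and 5830 and 5790 in G, did not pass (log2 difference 0.07, SE 0.08, limma adjusted p = 0.54).

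Acta2 encodes alpha smooth muscle actin, the actin of smooth muscle and of myofibroblasts. Probe set rc_AA900769_s_at had 1119 and 1120 in MAT-LyLu, against 16259 and 10303 in G. Both MAT-LyLu arrays were under background, and the signal was at least 6.15-fold lower there (fitted log2 difference -3.51, SE 0.19). The G arrays differed from each other by more for this probe set than for most members, but both stood far above the MAT-LyLu arrays. The other Acta2 probe sets did not share this difference. X06801cds_f_at had 21319 and 20981 in MAT-LyLu and 21506 and 26352 in G, a log2 difference of -0.17 (SE 0.12). X06801cds_i_at had 6398 and 6431 in MAT-LyLu, inside the 6590 and 4913 of G, a log2 difference of 0.17 (SE 0.13). The names of both say that they were designed on coding sequence, which the actin genes share closely, and the ending _f_at marks a design for a sequence family.

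Signals of the cytoplasmic actins stand beside these values. Actb had 44798 and 44147 in MAT-LyLu and 43249 and 52035 in G (log2 difference -0.09, SE 0.12, limma adjusted p = 0.60), and Actg1, read by another _f_at design, 46333 and 45494 in MAT-LyLu and 46652 and 61101 in G (log2 difference -0.22, SE 0.14, limma adjusted p = 0.28). Both were among the highest signals of the arrays. How much of the signal of the Acta2 coding probe sets comes from other actins was not tested. A further 4 probe sets are annotated to both Acta2 and the cardiac actin gene Actc1 and are not counted among the 23. Of these, X80130cds_f_at had 14600 and 14327 in MAT-LyLu, against 9905 and 9899 in G, and X80130cds_i_at 4150 and 4587 in MAT-LyLu and 4500 and 4808 in G. The other 2, rc_AI104567_at and rc_AI104567_g_at, lay between 1285 and 1934 in MAT-LyLu and between 1135 and 1918 in G, under background on every array.

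The 250 bases before the RefSeq start of Acta2 (GRCr8, chr1:241172504-241172753, minus strand) are shown because this member had the lowest fitted log2 difference of the 23 and is a textbook CArG box gene.
Acta2: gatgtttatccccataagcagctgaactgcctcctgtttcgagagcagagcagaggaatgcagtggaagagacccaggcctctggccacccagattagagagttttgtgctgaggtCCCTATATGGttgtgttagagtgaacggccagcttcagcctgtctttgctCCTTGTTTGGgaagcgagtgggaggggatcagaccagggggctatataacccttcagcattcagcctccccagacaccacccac
The capitals mark 2 CArG-like matches, CCCTATATGG from 134 to 125 and CCTTGTTTGG from 84 to 75 bases before the start, each with 1 G or C among its 6 core bases. Of all 33469 windows, 0.693% hold 2 or more such matches, and 1.5% hold a CArG box with only A and T in the core, which none of the 10 member windows did. Windows were listed for 7 of the 9 members (not Myl9 and Tagln), and outside Acta2 and Tpm3 no member window held a match. That says only that these letters are not in these windows.

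Tagln encodes transgelin, or SM22, an actin-binding protein of smooth muscle used as an early marker of that lineage. Probe set M83107_at had 680 and 774 in MAT-LyLu, under background, against 4410 and 3874 in G, at least 1.97-fold lower (fitted log2 difference -2.48, SE 0.11). M83107_g_at had 7642 and 7950 in MAT-LyLu, against 14710 and 13095 in G, 1.78-fold lower (log2 difference -0.83, SE 0.09). Both probe sets come from the same sequence and show the same direction without overlap. Their fitted sizes lie 1.65 apart on the log2 scale, of which the part under background has no exact size. With the dim arrays raised to background the values are -0.98 and -0.83.

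Cnn3 encodes acidic calponin, the calponin of non-muscle cells. Probe set rc_AA944422_at had 11897 and 9863 in MAT-LyLu, against 18222 and 17107 in G, 1.63-fold lower (log2 difference -0.70, SE 0.11). The other probe set, rc_AI639371_at, was far under background, at 317 and 224 in MAT-LyLu and 309 and 258 in G, and was not fitted. It gives no reading of the gene in either line.

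Cald1 encodes caldesmon, which binds actin, myosin and tropomyosin and holds back actomyosin. Its 1 probe set, rc_AI180288_s_at, had 2880 and 2845 in MAT-LyLu, against 1645 and 1505 in G. Both G arrays were under background, so the signal was at least 1.39-fold higher in MAT-LyLu (fitted log2 difference 0.86, SE 0.09). Of the 5 members that are no tropomyosins, Cald1 alone had no probe set lower in MAT-LyLu.

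The disagreement between probe sets of a gene was set beside that of all genes, as a description. Among 1138 genes with 2 or more probe sets fitted, the median gap between the largest and the smallest log2 difference was 0.22, and it was 0.20 with signals raised to background, a setting chosen for this measure after the data were seen. The gap of Acta2 was 3.69 as deposited and 2.79 with signals raised to background, since its lowest probe set has no exact size. More probe sets give more room for a gap, so like numbers were compared: with signals raised to background, 99.2% of the 236 genes with 3 probe sets had a smaller gap than Acta2. The gap of Tagln was 1.65 as deposited and 0.15 with signals raised to background. Its dimmer probe set has no exact size, so 0.15 is only a least value. Tpm3 had a gap of 1.85, Tpm4 of 0.98 and Tpm1 of 0.71 in both settings. With signals raised to background, 86.8% of the 68 genes with 4 or more probe sets had a smaller gap than Tpm3 and 54.4% a smaller one than Tpm1, and 96.0% of the 834 genes with 2 had a smaller one than Tpm4. As deposited, Tpm3 was among 13 genes (1.14%) with 1 or more probe sets called higher and 1 or more called lower, and among 4 of the 68 (5.88%) with 4 or more probe sets. For Tpm3 the lower call is L24776_at, near background in MAT-LyLu.

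**Figure D3:**
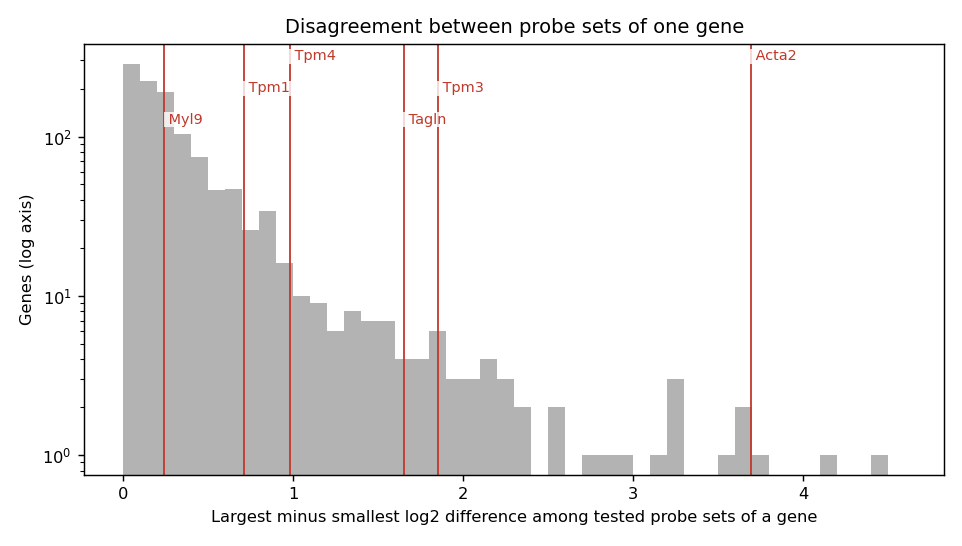
Gap between the largest and smallest log2 difference of the probe sets of a gene (x axis, log2 units) for the 1138 genes with 2 or more probe sets fitted, with the number of genes per bin on a log axis. Red lines mark members, from Myl9 at 0.24 to Acta2 at 3.69. Values are as deposited, and the lines of Acta2 and Tagln rest on signals under background, with gaps of 2.79 and 0.15 once these are raised to it.

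Other genes of contraction and of the actin filament were taken from lists chosen by function, without the 9 members. The lists were chosen with earlier results of these data known, so their counts and p-values are a description. Each gene was tested at the gene level with its probe set of the highest mean signal. At a limma adjusted p under 0.05, 14.7% of all 3866 genes tested rose and 20.6% fell, with a median log2 difference of -0.02. In the smooth muscle list, 3 of 17 genes tested rose, 2 fell and 12 did not pass, with a median log2 difference of 0.03. The falls were the LIM domain genes Csrp2, expressed in vascular smooth muscle, with 5284 and 4478 in MAT-LyLu against 13805 and 10987 in G (2.53-fold, log2 difference -1.34, SE 0.12, limma adjusted p = 3.5e-05), and Csrp1 (1.58-fold, limma adjusted p = 0.0016).

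Among the rises of that list, Ppp1r12a, the myosin-targeting subunit of the light chain phosphatase, rose 1.25-fold (limma adjusted p = 0.035) and Kcnmb1, a subunit of the calcium-activated potassium channel of smooth muscle, 1.23-fold (limma adjusted p = 0.034). Both lost their call without G replicate 1 (0.20 and 0.17), without MAT-LyLu replicate 0 (0.14 and 0.051) and without MAT-LyLu replicate 1 (0.13 and 0.24), and Kcnmb1 also with the mean of all its probe sets (log2 difference 0.11 against 0.30, limma adjusted p = 0.36). The remaining rise of the list kept its call in every alternative run that tested it, which leaves 1 rise without G replicate 1 or MAT-LyLu replicate 0.

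Late smooth muscle markers set beside the members showed no difference past the threshold among the 3 tested (Myh11, Des and Actg2). Of the 5 fixed (Myh11, Cnn1, Smtn, Des and Actg2), 4 were on the array, and the summed signal of these 4 was 8606 to 11179 in MAT-LyLu and 10833 to 11776 in G. Cnn1, the calponin of differentiated smooth muscle, was under background on all arrays, at 1143 and 1133 in MAT-LyLu and 1270 and 1534 in G. Actg2 had 1973 and 2023 in MAT-LyLu and 2383 and 2230 in G, with 1 MAT-LyLu array under background. Its MAT-LyLu arrays lay below both G arrays, but Actg2 did not pass (limma adjusted p = 0.12). Desmin, from Des, had 2304 and 2394 in MAT-LyLu and 2299 and 2289 in G, and did not pass (limma adjusted p = 0.81). Myh11, the smooth muscle myosin heavy chain, had 3186 and 5629 in MAT-LyLu and 5824 and 4780 in G on its highest probe set and did not pass (limma adjusted p = 0.32), and its other 2 probe sets were under background. Of 22 striated muscle markers on the array, 13 were above background on both arrays of each line. Whether these 13 are expressed in either line was not tested, and a signal above this level was not taken alone as expression. The summed signal of those 22 was 91523 to 93815 in MAT-LyLu and 95744 to 100455 in G. Of 5 simple epithelium markers on the array, 2 were above background on both MAT-LyLu arrays and 1 on both G arrays. Their summed signal was 52649 to 53050 in MAT-LyLu, against 12429 to 13945 in G. The gap between the lines came from Krt8, a keratin of simple epithelia, with 41435 and 41521 in MAT-LyLu against 1978 and 1691 in G. Cldn3 had 7353 and 7348 in MAT-LyLu and 7733 and 7263 in G. Krt18, Krt19 and Epcam were not above background on both arrays of either line. The lines thus differed in Krt8 and overlapped in Cldn3, while Krt18, Krt19 and Epcam give no clear reading. Neither of the 2 androgen response markers on the array, Acp3 and Pbsn, was above background on both arrays of a line. The part of other cell types in the member values was not tested.

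In the actomyosin list, 10 of 20 genes tested rose, 1 fell and 9 did not pass, with a median log2 difference of 0.26. Besides Myl12a and Myl12b, the largest calls by p were Arf6, a membrane-bound GTPase that acts on cortical actin and is no filament protein, with 29958 and 30023 in MAT-LyLu against 6902 and 6403 in G (4.50-fold, limma adjusted p = 1.2e-07), and the bundling protein plastin 3, from Pls3, with 6355 and 5561 in MAT-LyLu against 2431 and 2551 in G (2.38-fold, limma adjusted p = 8.4e-06). Arpc1b, a subunit of the complex that nucleates branched filaments, rose 2.51-fold (limma adjusted p = 1.9e-05), and the crosslinker gene Actn4 1.99-fold (limma adjusted p = 2.1e-05). The fall was Limk2, a kinase of the severing protein cofilin, at 1.20-fold (limma adjusted p = 0.032). Limk2 lost its call under quantile (0.063) and median scaling (0.064) and without any 1 of the 4 arrays (0.082 to 0.16).

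**Figure D4:**
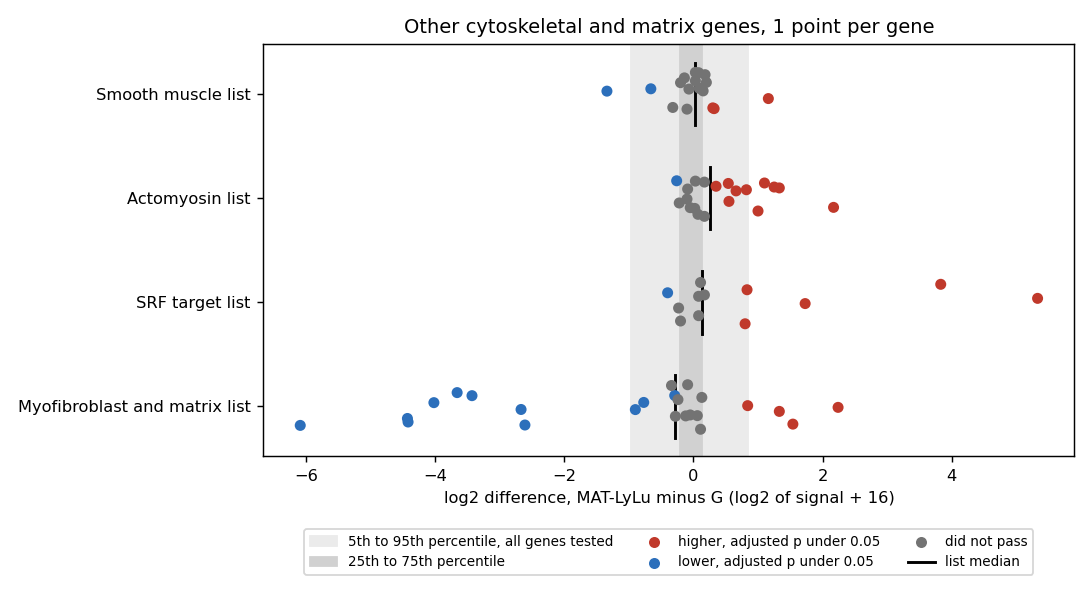
Log2 difference of each gene of the 4 lists, MAT-LyLu minus G, on the scale log2(signal + 16). Points are red for genes higher and blue for genes lower at a limma adjusted p under 0.05 and grey otherwise, black bars are list medians (0.03, 0.26, 0.14 and -0.29 from the top), and grey bands show the percentiles of all 3866 genes. Values beyond the background level, such as Dusp6 at 5.33 and Lum at -6.09, have no exact size.

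The genes listed as targets of serum response factor outside the contractile genes are mostly early response genes that other factors drive too. Whether this factor drives each of them in these lines was not tested. Of 12 tested, 5 rose, 1 fell and 6 did not pass, with a median log2 difference of 0.14. Fosl1, an AP-1 subunit, had 17549 and 14050 in MAT-LyLu against 1015 and 1161 in G, at least 7.59-fold higher (limma adjusted p = 2.6e-08). Dusp6, a phosphatase of ERK, had 21911 and 20525 in MAT-LyLu against 805 and 324 in G, at least 10.2-fold higher (limma adjusted p = 1.8e-06). The transcription factor gene Egr1 rose 3.31-fold on its brightest probe set, with 1 of the 2 G arrays under background (limma adjusted p = 8.7e-06). Of its 4 probe sets fitted, 2 were called higher and 0 lower. The urokinase receptor gene Plaur rose 1.77-fold (limma adjusted p = 4.3e-05) and Junb 1.74-fold (limma adjusted p = 0.0018). Fos did not pass, at 11414 and 11382 in MAT-LyLu and 11688 and 9978 in G (limma adjusted p = 0.59), and was named after its values were seen, as were Myl6, Myl12a and Limk2. No value was given for Srf, Myh9, Cnn2, Mylk or Vcl, which no probe set of 1 symbol named, and they were not analysed here.

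In the list of myofibroblast and matrix genes, 11 of 24 tested fell, 4 rose and 9 did not pass, with a median log2 difference of -0.29. The smallest p-values belonged to falls of Lum, Col1a2, Eln, Col1a1 and Bgn, all matrix genes, with limma adjusted p from 1.1e-09 to 3.0e-08. Lum, Col1a2 and Eln were under background on both MAT-LyLu arrays. The rises were Tgfb1 and, named after their values were seen, S100a4 (4.71-fold), the matrix gene Fn1 (2.92-fold) and Timp1 (1.79-fold). Tgfb1, the growth factor that induces Acta2 and Tagln in fibroblasts, rose, with 6309 and 8168 in MAT-LyLu against 3065 and 2632 in G (2.52-fold, log2 difference 1.33, SE 0.13, limma adjusted p = 4.7e-05). Tgfb1 RNA was higher in the line where Acta2 rc_AA900769_s_at and both Tagln probe sets were lower. The other Acta2 probe sets differed little. Active Tgfb1 protein and its signalling were not measured, and a link to these genes was not tested. The Tgfb1 receptor gene Tgfbr1, named after its values were seen, did not pass (log2 difference 0.11, SE 0.09, limma adjusted p = 0.39).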

How the data were processed

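The deposited values are linear signal intensities of probe sets, 1 column per array, made with MAS5 per the submitters' processing notes. Its version, scaling target and filters are not stated there. Trimmed array means differed by at most 7.83%, so no further scaling was applied. Genes were named from the platform annotation, with symbols updated through the GRCr8 RefSeq table (6994 of 7018 probe sets with 1 symbol matched, 308 had several and 1473 none). After 59 control probe sets and the 25% of the others with the lowest mean signal were left out, log2(signal + 16) of 6555 probe sets was fitted with limma 3.58.1 in R 4.3.3 (eBayes with an intensity trend, 2-sided, Benjamini-Hochberg, threshold 0.05). The fit was tested on simulated data with normal noise of equal size for all probe sets. That checks the code and not the error rate on these arrays. With 2 arrays against 2, an exact permutation test of a single value cannot go below p = 0.333, and the adjusted p-values borrow variance across probe sets. The members and the 4 gene lists were chosen with earlier results of these data known. Every member probe set is reported. Other genes named are the 5 with the smallest p in each list, 11 fixed in any case where measured, and those marked as named after their values were seen. One result of the smooth muscle list that this rule names is not reported here. Alternatives were the pseudocount, the filter, the scaling, a floor at background, the variance model, a replicate block, leaving out single arrays and averaging the probe sets of a gene.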

Additional observations from a re-analysis of the deposited data

How the results depend on the processing

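The count of probe sets called stayed within 1.5 times of 2238 in every alternative run, from 1688 with the lower 50% left out to 2498 with no filter. The numbers of genes called in the actomyosin, serum response factor target and matrix lists also stayed within 1.5 times of 11, 6 and 15. In the smooth muscle list 3 to 5 genes were called when 1 array was left out, against 5 with all arrays. Among genes, 41.6% of calls were rises as deposited, 50.8% with quantile and 49.1% with median scaling. Of 299 values of the member probe sets under 13 alternatives, 10 changed sign, in 6 probe sets whose log2 difference was at most 0.19 in size. Among probe sets whose lines did not overlap the sign changed once, for Tpm1 rc_AI144767_s_at, under background on all arrays (-0.19, and 0.02 with signals raised to background). Of the others, 290 moved by less than the spread of duplicates and 8 by more. Quantile and median scaling ended the separation of the lines for that probe set and for Acta2 X06801cds_f_at, and gave one for Acta2 X06801cds_i_at, with both MAT-LyLu arrays higher (log2 difference 0.24 and 0.22). The labels do not say that a replicate number pairs arrays of the lines, and deviations of arrays with the same number correlated at r = 0.16. With the replicate number as a block, 2388 probe sets were called. The number of arrays, and background for the dim probe sets, limit precision.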
